A study of Cricetulus griseus with 2 samples.

Results

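Tnfrsf1a (ENSCGRG00015004044), Traf1 (ENSCGRG00015003019) and Pycard (ENSCGRG00015023751) encode a receptor and adaptors of inflammatory signaling, and they are described here in CHO cells with and without tigecycline. CHO cells are an adherent line from Chinese hamster ovary. Tigecycline is an antibiotic of the glycylcycline class that acts on the bacterial ribosome. The control cells received 0 mg/ml and the treated cells 0.2 mg/ml tigecycline, each for 48 h, and total RNA was sequenced from 1 library per condition. The 3 genes are 3 of the 30211 rows of the deposited gene table, and they were chosen by their known roles and by their differences between these same 2 libraries, so the differences below are a description and no test was made. The values are TPM, in which reads are divided by the length of the gene and scaled to the same total in each library. There was no replicate, and TPM does not keep the number of reads, so the depth and the error of each value are unknown.

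TNF is a cytokine that binds Tnfrsf1a on the cell surface. The death domain inside the cell then gathers adaptors that lead either to NF-kappa B and the transcription of inflammatory genes or to cell death. Traf1 is an adaptor of the TRAF family that is found in TNF receptor complexes, lacks the RING domain of most other TRAF proteins, and is itself a known target gene of NF-kappa B. Pycard, also called ASC, works in another branch: it joins inflammasome sensors to caspase-1 through its pyrin and CARD domains, and caspase-1 then processes the precursor of interleukin-1 beta. These pathways are best known in immune cells, while TNF receptors are also found on most other cell types. Gene names were at hand only for genes that the study called changed in these libraries, so the named genes below are not a survey of their families. For the same reason the labelled cell type could not be checked against its markers. Vim, an intermediate filament gene of mesenchymal cells and many cultured lines, was the single epithelial-like or mesenchymal marker of 4 with an ID here, at 2235 TPM in the control against 966 TPM with tigecycline. None of 7 leukocyte markers had an ID, so their levels in these cultured CHO cells are not known here.

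The receptor and the inflammasome adaptor were lower with tigecycline, and Traf1 was higher. The level of Tnfrsf1a was 83.8 TPM in the control library and 25.4 TPM in the tigecycline library, or 30.3% of the control level. This was a 3.30-fold lower level and a change of -1.68 on the log2(TPM + 1) scale, on which all changes below are given as tigecycline minus control. The level of Pycard was 52.1 TPM in the control against 7.59 TPM with tigecycline, or 14.6% of the control level. It was 6.86-fold lower, with a change of -2.63, the largest of the 3 genes. The level of Traf1 was 9.29 TPM in the control against 26.2 TPM with tigecycline, which was 2.82-fold higher, with a change of 1.40. All 3 genes thus lay past a change of 1 on this scale, which for low genes is stricter than the study's fold criterion on read counts, and this follows from how they were chosen. Over all rows 2.85% were higher and 3.20% lower by 1 or more, but many of these rows held no signal, since 12642 of them were listed at 0 in both libraries. In bulk RNA, fewer cells with a transcript and less transcript per cell cannot be told apart.

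**Figure D1:**
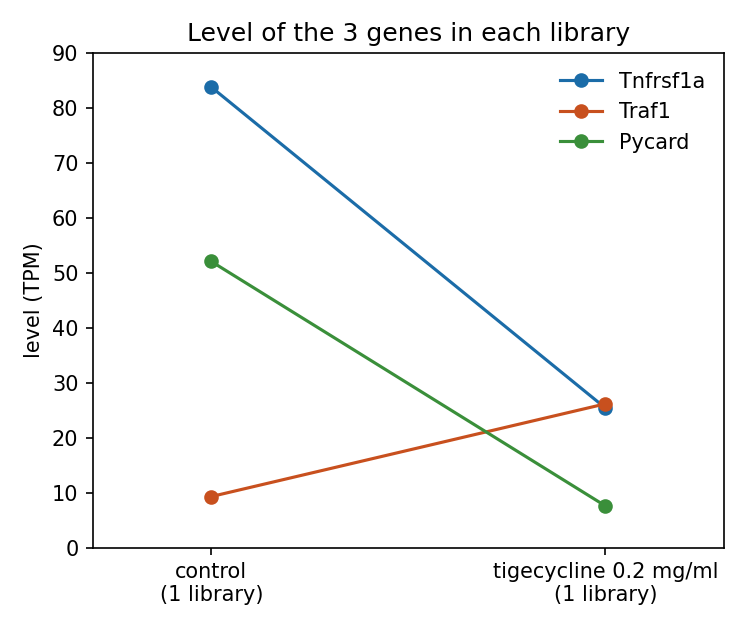
Level in TPM (vertical axis, from 0) of Tnfrsf1a, Traf1 and Pycard in the control library and in the library with 0.2 mg/ml tigecycline; each point is 1 library and lines join the points of a gene. Tnfrsf1a and Pycard lie far above Traf1 in the control, and with tigecycline Tnfrsf1a and Traf1 meet near 25.4 and 26.2 TPM while Pycard is at 7.59 TPM.

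The order of the 3 genes differed between the libraries. In the control the order was Tnfrsf1a, Pycard, Traf1, and the receptor stood 9.02 times above Traf1 per unit of length. With tigecycline the order was Traf1, Tnfrsf1a, Pycard. The level of Tnfrsf1a was then 0.971 times that of Traf1, a gap that cannot be told from equal levels without replicates. The level of Pycard was 5.60 times that of Traf1 in the control and 0.290 times with tigecycline. Tnfrsf1a stood above Pycard in both libraries, by 1.61 times in the control and by 3.35 times with tigecycline. Together the 3 genes held 145 TPM in the control against 59.2 TPM with tigecycline. The RefSeq annotation of CriGri-PICRH-1.0, matched through NCBI gene numbers, lists 3 transcripts for Tnfrsf1a, 2 for Traf1 and 2 for Pycard, and the deposited values do not separate transcripts.

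The place of each gene among all transcripts of its library also shifted. In the control 16431 rows were above 0 TPM, and 13.7% of them were more abundant than Tnfrsf1a, 21.8% more abundant than Pycard and 57.0% more abundant than Traf1. With tigecycline 16448 rows were above 0 TPM, of which 37.5% were more abundant than Tnfrsf1a, 59.5% more abundant than Pycard and 37.0% more abundant than Traf1. The receptor therefore moved from the upper part of the range to its middle, Pycard from the upper part to below the middle, and Traf1 in the opposite direction. Among the 9256 rows averaging at least 10 TPM, Pycard ranked 30 and Tnfrsf1a 110 of the 4184 that were lower, counted from the largest difference. Traf1 ranked 164 of the 5070 that were higher. All 3 genes belonged to the 13200 rows averaging at least 1 TPM, whose median change was 0.04.

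**Figure D2:**
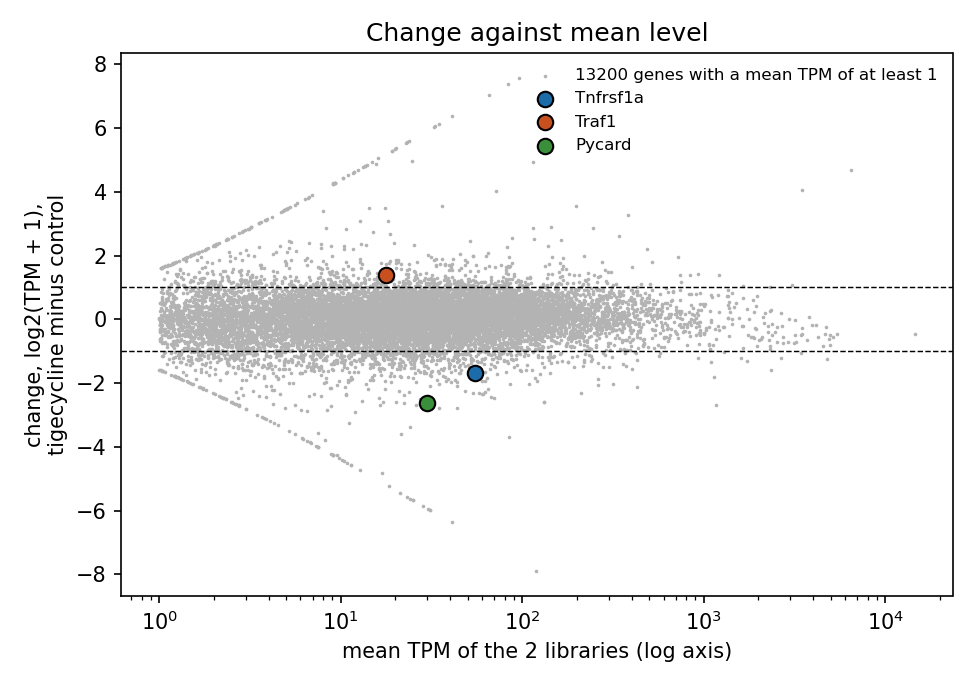
Change in log2(TPM + 1), tigecycline minus control (vertical axis), against the mean TPM of both libraries (horizontal log axis) for the 13200 genes averaging at least 1 TPM (grey points), with the 3 genes as large points and dashed lines at changes of 1 and -1. Traf1 lies above the upper line and Tnfrsf1a and Pycard below the lower line; the rays of points that fan out are genes listed at or near 0 in 1 library.

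The level of a gene affects how far its value can move, so each gene was set beside all rows whose mean TPM lay between 20% below and 25% above its own. For Tnfrsf1a there were 1386 such rows, with means from 43.7 to 68.3 TPM. Their median change was 0.12, with quartiles at -0.29 and 0.48, and 5.12% were lower by 1 or more. The change of Tnfrsf1a lay outside the middle of this spread: 14 rows, or 1.01%, were lower by at least as much. With a narrower window, within 1.1 times the mean of Tnfrsf1a, this share was 0.502%. None of the 14 was listed at 0 in either library. The 3 with a name were Itpr3, a calcium channel of the endoplasmic reticulum, at 95.8 and 24.5 TPM, Mmp19, a secreted metalloproteinase, at 100.7 and 18.9 TPM, and Fbxo32, a ubiquitin ligase subunit, at 80.7 and 16.2 TPM in the control and with tigecycline.

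For Traf1 there were 1494 rows of similar mean level, from 14.2 to 22.2 TPM, with a median change of 0.01 and quartiles at -0.39 and 0.39. Of these, 4.28% were higher by 1 or more, and 27 rows, or 1.81%, were higher by at least as much as Traf1. In 6 of the 27 the control was listed at 0, and 2 of these 6 had identical values and may not be separate genes. Relt, a further receptor of the TNF receptor family, was among them, at 7.69 TPM in the control against 29.8 TPM with tigecycline. Il6, which encodes an inflammatory cytokine, was another, at 3.18 and 26.9 TPM. The other 2 with a name were Sec11c, a subunit of the signal peptidase, at 7.08 and 26.4 TPM, and a gene assigned to AKAP8L, at 8.62 and 31.6 TPM.

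For Pycard there were 1685 rows of similar mean level, from 23.9 to 37.3 TPM, with a median change of 0.06 and quartiles at -0.34 and 0.38. Of these, 6.53% were lower by 1 or more, while 10 rows, or 0.593%, were lower by at least as much as Pycard. Of the 10, 7 were listed at 0 with tigecycline, and 6 were assembled loci, which carry no annotated gene ID. The other 4 had annotated IDs, and all of these were listed at 0 with tigecycline. In 2 of the 4 the values were identical, so they may not be separate genes. With annotated IDs alone the share was 0.250%. An exact 0 in a TPM table can be a failed estimate, so those rows are given as listed.

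**Figure D3:**
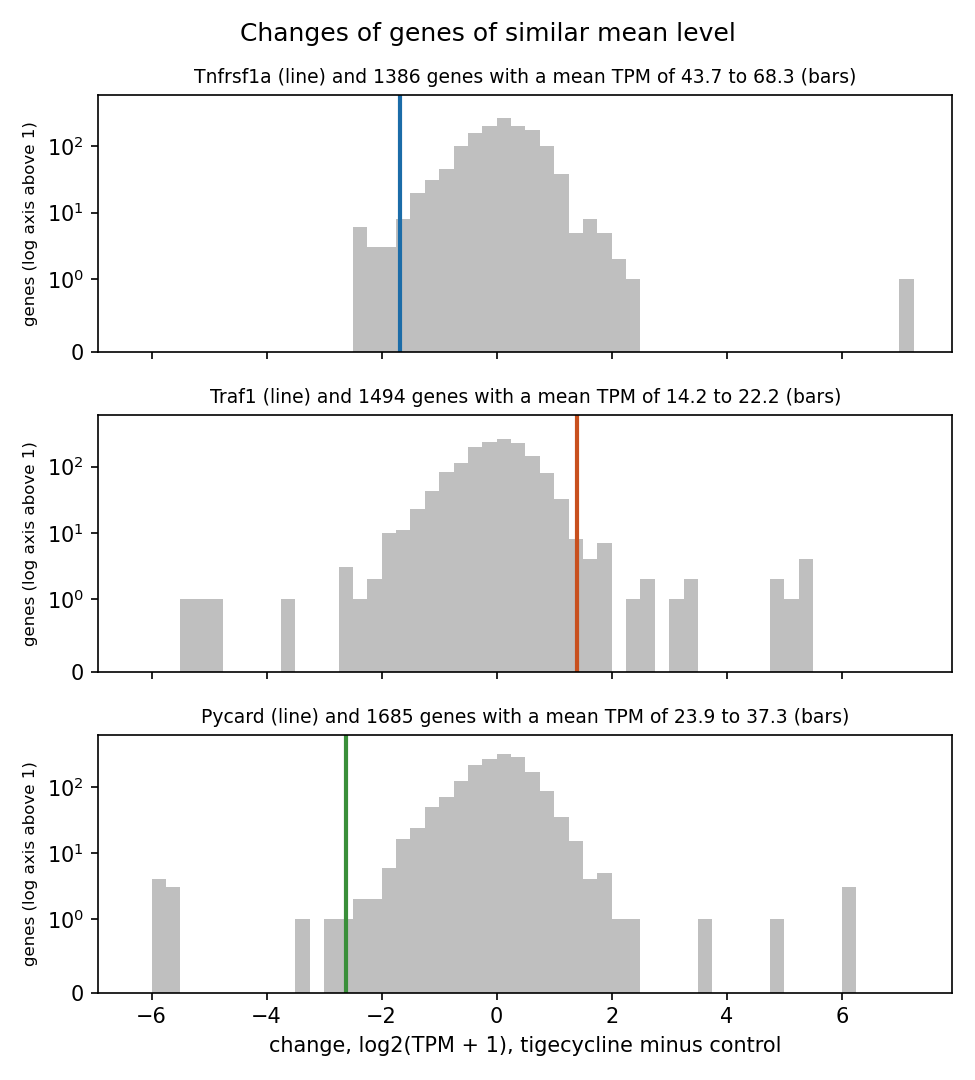
Number of genes (vertical axis, logarithmic above 1) by change in log2(TPM + 1), tigecycline minus control (horizontal axis), for the genes of similar mean TPM to Tnfrsf1a (1386), Traf1 (1494) and Pycard (1685), with a coloured line at the change of each gene. Each line stands in a tail of its distribution, at -1.68, 1.40 and -2.63.

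Of the receptors with a name, Tnfrsf1a was lower, and Relt, which belongs to the same family, was higher, with a change of 1.83. P2rx7, the ATP-gated channel that is a classical trigger of the inflammasome, had 1.11 TPM in the control against 2.64 TPM with tigecycline, a change of 0.79 at a low level. The study's table of changed genes holds 2 genes for tumor necrosis factor binding. They moved in opposite directions, since the other one, ENSCGRG00015007697, which has no name here, had 23.6 TPM in the control against 52.9 TPM with tigecycline, a change of 1.13. In the control Tnfrsf1a was the more abundant of this pair and with tigecycline it was the less abundant.

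The study's table, which holds only genes it called changed, lists 3 genes for inflammasome complex. Pycard, itself chosen by its difference, was the most abundant of them in the control. The 3 summed to 68.7 TPM in the control against 15.3 TPM with tigecycline, and without Pycard the other 2 summed to 16.6 and 7.68 TPM. Casp1, the protease that Pycard recruits, was near 0 throughout, at 0.87 TPM in the control against 0.15 TPM with tigecycline, with a change of -0.70. The third, ENSCGRG00015017596, had no name here, with 15.8 and 7.53 TPM and a change of -0.97, so that with tigecycline it lay beside Pycard at 7.59 TPM. A gene assigned to NLRP1, a sensor that can signal through Pycard, had 2.34 TPM in the control against 0.31 TPM with tigecycline, a change of -1.35. Of these genes Pycard and the NLRP1 gene lay past a change of 1. The added 1 kept ENSCGRG00015017596 and Casp1, which was 5.8-fold lower in TPM, short of this line. The low values of Casp1 and NLRP1 have no known error. Casp6, a caspase of apoptosis outside these lists, was lower as well, at 14.9 and 5.23 TPM, with a change of -1.35.

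The inhibitors differed in direction. Tnfaip3, which encodes the A20 protein that limits NF-kappa B signaling from TNF receptors, was higher, at 12.7 TPM in the control against 38.1 TPM with tigecycline, with a change of 1.52. This was close to the change of Traf1. Bcl2l1, an inhibitor of apoptosis, was lower, at 62.6 and 24.4 TPM, with a change of -1.33. In the study's list for the TNF signaling pathway, the cytokine gene Il6 and the gene assigned to LIF were higher, with changes of 2.74 and 0.89. The feedback inhibitor Socs3, from the same list, was lower, with a change of -1.35. Ccl17, a chemokine gene, was at 2.30 TPM in the control against 7.38 TPM with tigecycline, with a change of 1.34.

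**Figure D4:**
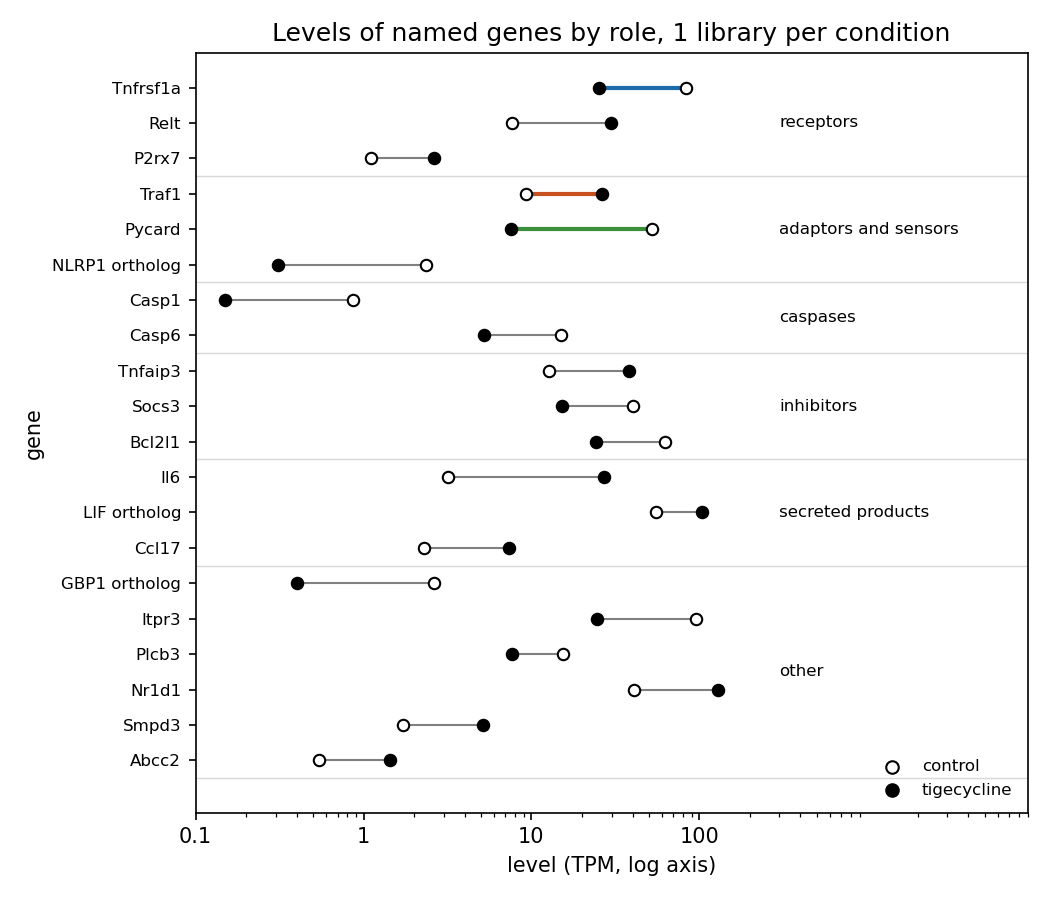
Level in TPM (horizontal log axis) of 20 named genes grouped by role, with open circles for the control and filled circles for tigecycline, 1 library each; the lines of Tnfrsf1a, Traf1 and Pycard are coloured. Within receptors, adaptors and inhibitors some genes lie higher and some lower with tigecycline, whereas both caspases are lower and the 3 secreted products higher; all were named from genes the study called changed.

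The pathway lists were then used to place each gene among its partners. These lists hold only genes that the study called changed in the same libraries, so a count in them is not independent evidence of direction, and genes of a pathway that did not change are missing from them. In the TNF signaling pathway 12 of 19 listed genes lay higher and 7 lower, and their median change was 1.13. Past a change of 1 there were 11 higher and 6 lower. The size of a median is set by that selection. Over all rows 9060 were higher and 8235 lower by sign, and of the 1827 rows past a change of 1 in either direction 47.1% were higher. This share depends on how the 2 libraries are scaled. No test was made of the difference between a list and all rows. Traf1 stood at place 8 from the top of the 19, and Tnfrsf1a at place 3 from the bottom. In the NF-kappa B signaling pathway 7 of 12 lay higher and 5 lower, and their median change was 1.26, with 7 higher and 3 lower past 1. Tnfrsf1a was the lowest of these 12, and Traf1 stood at place 5 from the top. The 2 lists share 8 genes, which is 42.1% of the first and 66.7% of the second, so they are not separate views. All 9 lists together hold 55 genes, of which 23 were higher and 32 lower, with a median change of -0.93, and 20 were higher and 25 lower past 1.

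Pycard had the lowest change of the 55 genes, so it is the lowest in each list that holds it, and these lists overlap. In the NOD-like receptor signaling pathway 7 of 17 genes lay higher and 10 lower around a median change of -0.88. Past a change of 1 there were 6 higher and 5 lower, but this count depends on the added 1. The genes it left short of 1 included Plcb3 and Casp1, 2.02-fold and 5.8-fold lower in TPM, and P2rx7, 2.38-fold higher. In Necroptosis, which holds both Pycard and Tnfrsf1a, 5 of 13 lay higher and 8 lower around a median change of -0.94, with 5 higher and 6 lower past 1. Of the 5 higher genes, 2 had identical values and may not be separate genes. Tnfrsf1a stood at place 3 from the bottom. Both medians moved toward 0 with a pseudocount of 5, to -0.47 and -0.41. For regulation of tumor necrosis factor-mediated signaling, a list that holds Pycard and Casp1 but not the receptor, 1 of 7 genes lay higher and 6 lower around a median change of -1.29, with 1 higher and 4 lower past 1. For regulation of interleukin-1 beta secretion 2 of 6 were higher, namely P2rx7 and Tnfaip3, and 4 were lower, with a median change of -0.84. Past 1 there were 1 higher and 2 lower. For cellular response to tumor necrosis factor 8 of 14 lay higher and 6 lower around a median change of 0.92, with 7 higher and 6 lower past 1. Over all rows past 1, 47.1% were higher, and none of these lists was tested against that share.

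**Figure D5:**
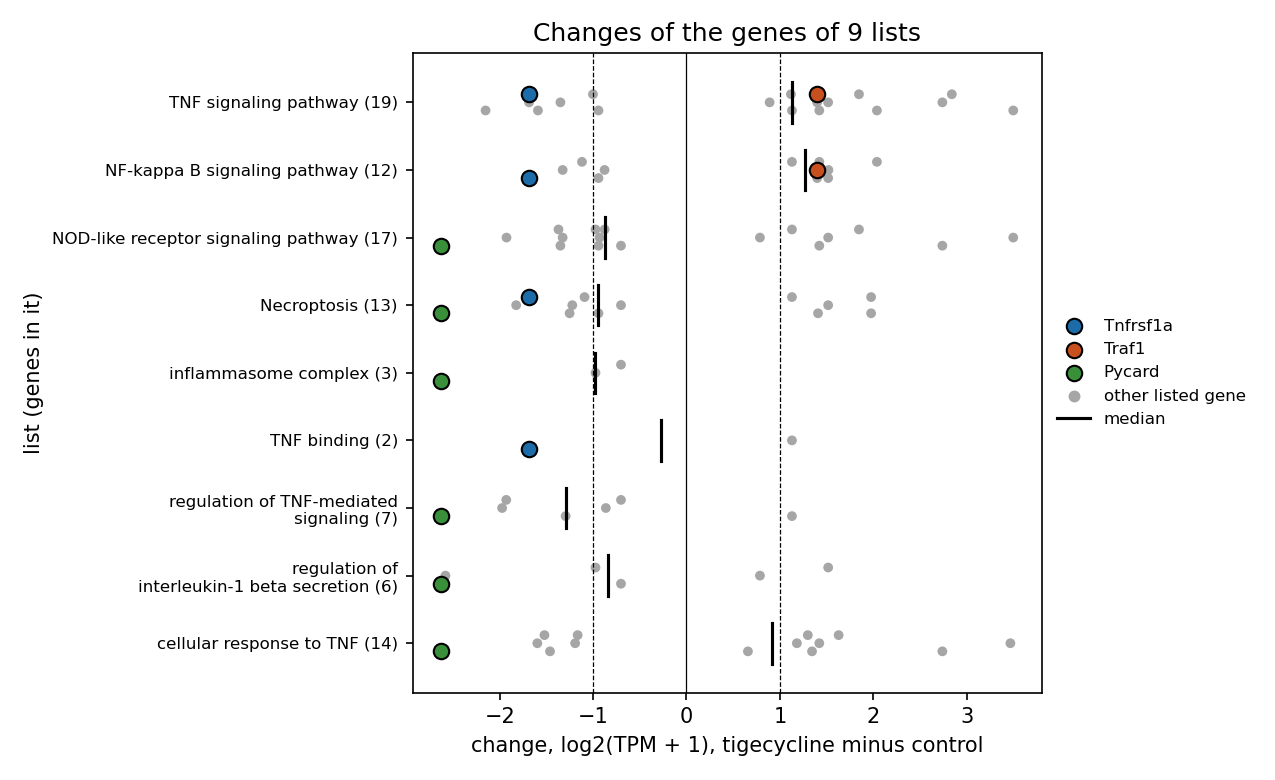
Change in log2(TPM + 1), tigecycline minus control (horizontal axis), of each gene (points) in the 9 lists (rows, with the number of genes), with the median of a list as a black bar and dashed lines at 1 and -1; points are shifted vertically for legibility. Pycard (green), the lowest of all 55 genes, is the lowest point of the 6 lists that hold it, and Traf1 (orange) and Tnfrsf1a (blue) lie on opposite sides of 0 in the 2 lists that hold both.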

How the data were processed

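RNA of CHO cells was sequenced in 1 control and 1 tigecycline library. The authors deposited gene-level TPM, rounded to 2 decimals, with a sum of 999999.9 for the control and 1000000.12 for tigecycline. The submitters' processing notes name HISAT2 2.1.0, Bowtie2 2.3.5 and RSEM 1.3.1. The genome build is not given in the sources used here. The table has 28472 annotated IDs and 1739 assembled loci. Because TPM is relative, a change is a change in share.

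Changes were computed as log2(TPM + 1), tigecycline minus control. The added 1 understates changes of low genes. With 1 library per condition no test was run and p-values were not computed. Rows of similar level had a mean TPM between 20% below and 25% above that of the gene. The functions were tested on simulated data. Names came from the part of the study's gene table held here, which gave names for 400 genes, all called changed by the study, and holds also the authors' fold changes and p-values, which were not used. Lists came from the study's KEGG and GO tables. Named genes were the 3 genes, all list members with a name, and other TNF receptor, TRAF, caspase, sensor or inflammasome genes with one. Rows that changed at least as far as one of the 3 genes at similar level were named after their values were seen. The members and lists were chosen with earlier results of these data known. Alternatives were pseudocounts of 0.1 and 5, centring the log2 ratios on 0 by the median of genes averaging at least 10 TPM, TPM without the 20 most abundant genes, a minimum mean TPM of 1, a threshold of 1.5, windows of 1.1 and 1.5 times, and annotated IDs alone. The tools were Python 3.11.15, numpy 2.4.6, pandas 2.3.3 and matplotlib 3.10.9.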

Additional observations from a re-analysis of the deposited data

How the results depend on the processing

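No paired analysis was possible because each condition had 1 library, and for the same reason no library could be left out. The changes of Tnfrsf1a, Traf1 and Pycard stayed within 1.5 times their value and past 1 under all 4 alternatives run for them, from -1.75 to -1.55, from 1.12 to 1.48 and from -2.76 to -2.18. A pseudocount cannot turn a direction, and rescaling shifted these changes by 0.06, so this says nothing about replicate error. The number of rows past a change of 1 depended on the pseudocount and the threshold. Over all 30211 rows the counts were 861 higher and 966 lower as reported, 2010 and 2134 with a pseudocount of 0.1, 391 and 440 with a pseudocount of 5, and 307 and 327 at a threshold of 1.5. A larger pseudocount shrinks low genes and a stricter threshold admits fewer, by construction. Centring the log2 ratios on 0 gave 749 higher and 1089 lower, so the balance of the directions depended on the scaling. The share of similar rows as low as Tnfrsf1a was 0.502% in the window of 1.1 times, and that for Pycard was 0.250% with annotated IDs alone. A pseudocount of 5 took the median change to -0.47 in NOD-like receptor signaling and -0.41 in Necroptosis. The other 53 of 63 alternative values stayed within 1.5 times of the reported ones. The unknown depth limits the low values most, such as those of Casp1, NLRP1 and P2rx7.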

Other observations

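Of the 6 lower genes listed for the cellular response to tumor necrosis factor, Pycard alone has a name here, so the genes given next are from its higher side. Nr1d1, a nuclear receptor of the circadian clock that represses transcription, was at 41.0 TPM in the control against 129 TPM with tigecycline, with a change of 1.63. Smpd3, a sphingomyelinase that releases ceramide, was at 1.71 and 5.15 TPM, with a change of 1.18. Abcc2, an efflux pump of organic anions, was at 0.54 and 1.43 TPM, with a change of 0.66. Inpp5k, a phosphoinositide phosphatase, was listed at 0 in the control and at 10.1 TPM with tigecycline, so no fold is given.

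Itpr3 had a change of -1.93, and Plcb3, a phospholipase that makes the ligand of Itpr3, was at 15.4 TPM in the control against 7.62 TPM with tigecycline, with a change of -0.93. A gene assigned to GBP1, a guanylate-binding protein induced by interferon, was at 2.62 and 0.40 TPM, with a change of -1.37. In the Necroptosis list 2 genes without a name, ENSCGRG00015024340 and ENSCGRG00015024341, had the same values, 21.1 TPM in the control against 85.9 TPM with tigecycline. They were chosen after their values were seen, and whether reads were divided between copies of 1 gene was not tested.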
